A study of Mus musculus with 6 samples.

Results

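Macrophages and other myeloid leukocytes were followed in neomycin-damaged cochleae through 40 genes that mark them, chosen by name from common macrophage, monocyte and leukocyte markers. All 40 were among the 24421 gene symbols of the count table, and 38 of them had enough reads to be tested, among 15988 genes tested in all. The 2 that did not, Siglech and Cd163, are described from their counts. The samples were cochlear explants, pieces of the inner ear kept in culture, from wild-type mice at postnatal day 2 (P2), and 3 control samples were compared with 3 samples given neomycin, an aminoglycoside toxic to hair cells (HCs). Neomycin was applied at 1 mM over 6 h after an initial 12 h in culture, and 5 further days of culture with 10 μM EdU, a label of DNA synthesis, followed. The growth text of the labels gives the neomycin step for all 6 samples, so that the control group rests on the treatment label and the sample title, and its EdU exposure on that shared text. Each sample was a pool of 6 to 8 cochleae, and the stria vascularis anlage, modiolus and tectorial membrane, the first 2 of which can hold macrophages of their own, were dissected away in the study's culture protocol. An explant in culture has no blood circulation, and whether leukocyte numbers changed in it was not tested.

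Tissue macrophages are phagocytes that settle in organs during development, depend on signals through the receptor encoded by Csf1r, and clear dead cells and debris. Several of their surface receptors have no signaling domain of their own and pair with the small adaptors encoded by Tyrobp (DAP12) and Fcer1g (the common gamma chain), whose cytoplasmic immunoreceptor tyrosine-based activation motif (ITAM) recruits the kinase SYK. Resident macrophages are known in the neonatal and adult cochlea, and they engulf HC debris after damage.

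Reads were summed per gene and are given as CPM, the share of a library in parts per 1000000 reads, after scaling of the libraries by the trimmed mean of M values (TMM). A gene was called where its fold change was over 1.5 and its p-value from edgeR's quasi-likelihood test, adjusted by the Benjamini-Hochberg method over all genes tested, was under 0.05. Total counts ran from 50471116 to 66068108 per sample, and the 40 genes together held 19624 to 29125 reads, or 0.0342% to 0.0478% of a library. The 20 HC genes of the marker list summed to 988 to 1127 CPM in control and 328 to 401 CPM after neomycin, and 17 of the 20 were called lower, so that the groups differed in HC transcripts in the direction of their labels. Over all genes, 358 were called higher after neomycin, 2.24% of those tested, and 1055 lower, 6.60%.

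The defining macrophage markers were present in every sample of both groups. Csf1r lay between 6.16 and 7.07 CPM, Adgre1 (the F4/80 antigen) between 7.93 and 11.4 CPM, and Cd68, a lysosomal glycoprotein of phagocytes, between 13.9 and 26.3 CPM. Markers that separate other states were near 0. P2ry12, the purine receptor of microglia, had 9 to 19 counts per sample, and Siglech, a lectin of microglia and plasmacytoid dendritic cells, had 0 counts in 4 samples, 5 in neomycin replicate 2 and 1 in neomycin replicate 3, which is too few for a fold change. The monocyte receptor gene Ccr2 averaged 0.024 CPM in control and 0.030 CPM after neomycin.

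Per kilobase of annotated exon, the most abundant of the 40 transcripts was Lyz2, the lysozyme of macrophages and neutrophils, at a mean of 110 CPM per kb over the 6 samples. Tyrobp followed at 23.4, then Ctss at 17.8, Cd68 at 15.5 and Fcer1g at 10.7 CPM per kb. Csf1r, at 1.14 CPM per kb, stood at rank 23 of 40, and Ptprc (CD45, the leukocyte phosphatase) at rank 36 with 0.105 CPM per kb. Levels within the list thus spanned a wide range, and the low ones rest on few reads.

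The summed level of the 40 genes was higher in every neomycin sample than in any control sample. It was 327, 376 and 385 CPM in control replicates 1, 2 and 3, and 411, 494 and 493 CPM in neomycin replicates 1, 2 and 3. The means were 363 ± 30.9 CPM and 466 ± 47.3 CPM (SD, n = 3 each), a ratio of 1.28. Lyz2 alone gave 32.2% to 35.9% of the sum, and without it the ratio was 1.26, with 222 to 247 CPM in control and 264 to 321 CPM after neomycin. The trend on gene length, described further on, was not removed from these sums. With it removed, the log2 fold change of Lyz2 was 0.15 in place of 0.41. The median of the 38 genes tested was then 0.26 in place of 0.31. In these bulk samples more cells of a type and more RNA per cell cannot be told apart.

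Of the 38 genes tested, 8 were called higher after neomycin (21.1%, against 2.24% of all genes) and 0 lower (against 6.60%, with 1 at an unadjusted p-value under 0.05 and 0 in DESeq2's Wald test). The 8 were Ms4a7, Tyrobp, Fcgr1, Trem2, Fcer1g, Pf4, Mrc1 and Cd68. With no fold change threshold 13 were higher (34.2%, against 12.9% of all genes), the further 5 being Cd53, Fcgr3, Ctss, Lyz2 and Mpeg1, and 1 was lower, Cd14 (16.1% of all genes were lower by this rule). The 3 neomycin values lay above all 3 control values for 17 of the 38, where 21.0% of all genes did so, and below them for 1, Itgam, where 22.5% did. The log2 fold change was above 0 for 31 and below 0 for 7, and it ranged from -0.58 to 1.11 with a median of 0.31, beside a median of -0.00 over all genes tested. DESeq2's Wald test and limma-voom called the same 8 genes higher. limma-voom also called Cd14 lower.

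**Figure D1:**
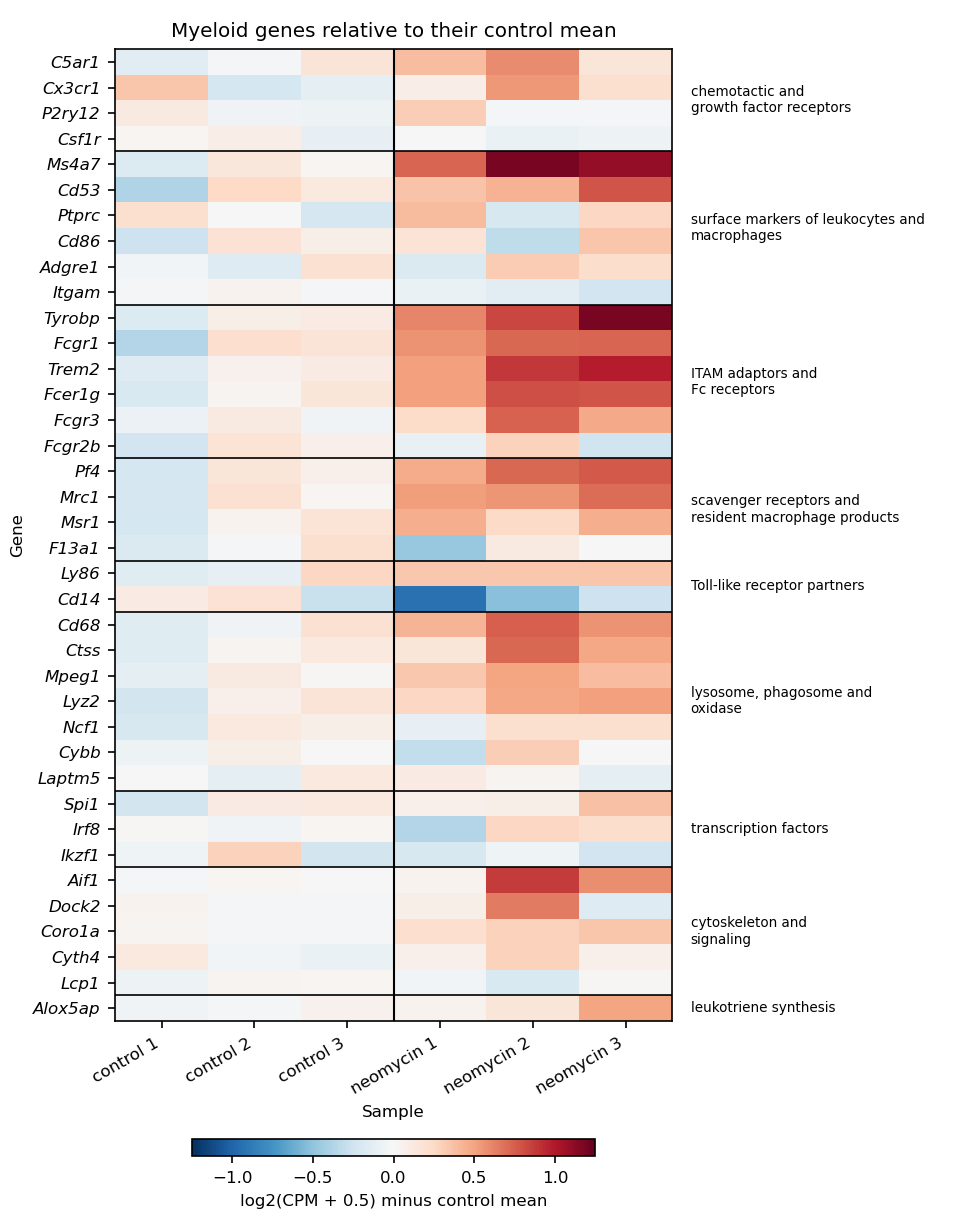
Level of the 38 tested myeloid genes in each of the 6 samples (columns), as log2(CPM + 0.5) minus the mean of the 3 control samples, with genes (rows) grouped by role and red for values above the control mean. The median of the column is -0.13, 0.04 and 0.06 in control replicates 1 to 3 and 0.16, 0.31 and 0.34 in neomycin replicates 1 to 3, and the deepest red is in Ms4a7, Tyrobp and Trem2.

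The samples of a group were not alike. Control replicate 1 was the low sample, with 9 of the 38 genes above their control mean, where the other control samples had 25 and 26. Neomycin replicate 1 was the lowest treated sample, with 28 of 38 above the control mean, and the other two had 30 each. Leaving out control replicate 1 left 5 genes called higher (Ms4a7, Tyrobp, Fcer1g, Trem2 and Pf4), and leaving out neomycin replicate 1 gave 11. Those 5 genes were called in every fit with 1 sample left out.

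As a group, the ITAM adaptors, Fc receptors and Trem2 held 4 of the 8 calls among 6 members. Over all genes 2.24% were called higher. The median log2 fold change of the 6 was 0.79. After correction for gene length, described further on, that median was 0.47. Trem2 alone of the 4 was then called, and no adaptor or Fc receptor was. Gene positions are from GENCODE on GRCm38 (mm10). Tyrobp, whose adaptor DAP12 serves Trem2 and many other receptors (chr7:30413760-30417585, + strand), had 9.46, 11.3 and 11.5 CPM in control and 16.6, 19.5 and 25.1 CPM after neomycin. Every treated sample lay above every control sample, and the log2 fold change was 0.93 (SE 0.14, adjusted p = 0.000792). Trem2, a receptor for lipids and cell debris on macrophages and microglia (chr17:48346401-48354147, + strand), had 8.97, 10.5 and 10.8 CPM in control and 14.5, 19.0 and 20.4 CPM after neomycin. It rose by a log2 fold change of 0.83 (SE 0.13, adjusted p = 0.000969), with no overlap between the groups.

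Fcer1g, the second ITAM adaptor (chr1:171229572-171234365, - strand), had 6.07, 7.15 and 7.83 CPM in control and 10.1, 12.6 and 12.4 CPM after neomycin. It rose by 0.74 on the log2 scale (SE 0.14, adjusted p = 0.00225). The Fc receptor genes, whose products bind antibody, were not alike. Fcgr1, the high-affinity receptor, had 0.754, 1.36 and 1.30 CPM in control and 1.88, 2.15 and 2.18 CPM after neomycin (log2 fold change 0.87, SE 0.29, adjusted p = 0.0397). That call rests on 52 to 127 reads per sample and was lost in 5 of 6 fits with 1 sample left out, with adjusted p-values of 0.0383 to 0.131. Fcgr3, a low-affinity activating receptor, had 5.51, 6.31 and 5.62 CPM in control and 6.91, 10.0 and 8.23 CPM after neomycin. Its adjusted p was 0.0233 at a log2 fold change of 0.53, under the fold threshold, and in 3 of the 6 fits with 1 sample left out it was 0.0508 to 0.132. Fcgr2b, the inhibitory receptor of the family, has no ITAM and had 3.42 to 4.70 CPM in control and 3.39 to 5.12 CPM after neomycin, with a log2 fold change of -0.01 (SE 0.20, adjusted p = 0.986). Fcgr2b and Fcgr3 lie close together on chromosome 1 and resemble each other in sequence, and how reads that match both were counted is not given in the sources used here.

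Ms4a7, a surface gene of resident macrophages (chr19:11321039-11336146, - strand), had the largest fold change of the 38. It had 3.25, 4.16 and 3.79 CPM in control and 6.48, 9.08 and 8.51 CPM after neomycin, a 2.15-fold rise (log2 fold change 1.11, SE 0.17, adjusted p = 0.000743). The tetraspanin gene Cd53, a pan-leukocyte marker, had 6.56, 10.4 and 9.52 CPM in control and 11.2, 11.9 and 15.3 CPM after neomycin (log2 fold change 0.54, adjusted p = 0.0332). Its adjusted p was over 0.05 in 3 of the 6 fits with 1 sample left out, at 0.0672 to 0.138. The other surface markers did not pass the test. Adgre1 had 8.82, 7.99 and 10.4 CPM in control and 7.93, 11.4 and 10.6 CPM after neomycin, with overlapping groups (log2 fold change 0.13, adjusted p = 0.541). Ptprc, at 1.46 to 2.12 CPM in control and 1.47 to 2.49 CPM after neomycin, Cd86, a costimulatory ligand with 12 to 33 reads per sample, and Itgam, the CD11b integrin subunit, had adjusted p-values of 0.613, 0.818 and 0.498. Itgam had 3.22, 3.39 and 3.26 CPM in control and 3.07, 2.95 and 2.72 CPM after neomycin, so that its groups separated by a small step downward.

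**Figure D2:**
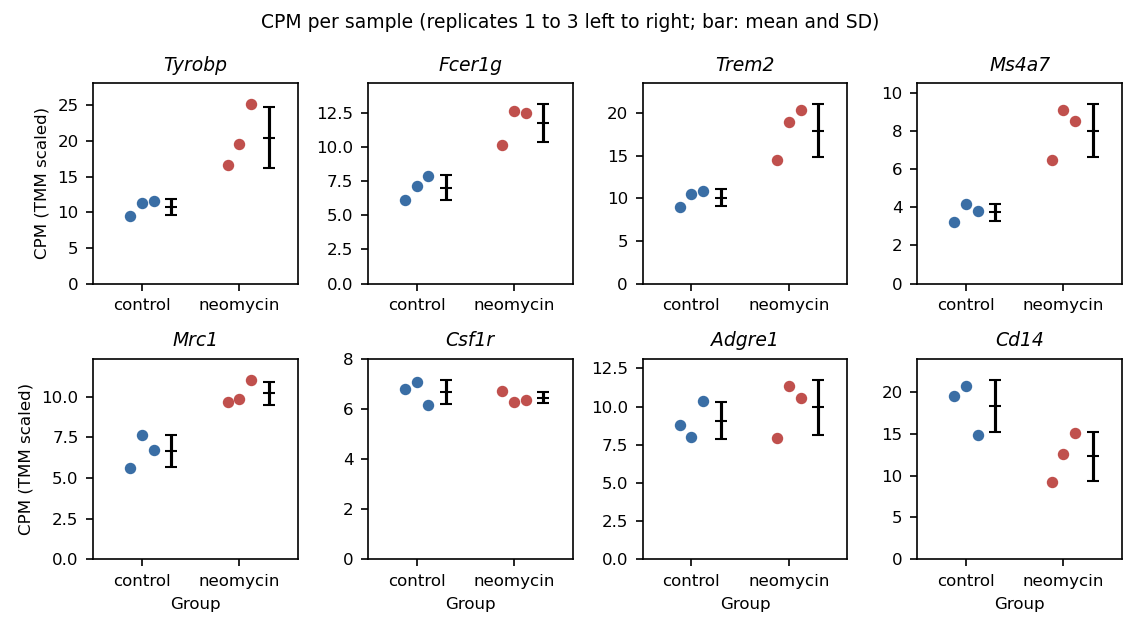
CPM of 8 myeloid genes in each sample (points, blue for 3 control and red for 3 neomycin samples) with the mean and SD of each group (bars), every axis starting at 0. Tyrobp, Fcer1g, Trem2, Ms4a7 and Mrc1 have no overlap between the groups, Csf1r lies between 6.16 and 7.07 CPM throughout, Adgre1 overlaps, and Cd14 is lower in neomycin replicates 1 and 2 while neomycin replicate 3 lies just above control replicate 3.

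Of the 4 growth factor and chemotactic receptors 0 were called by edgeR or DESeq2, and 1, C5ar1, had an unadjusted p-value under 0.05. Csf1r, the receptor for macrophage colony-stimulating factor and interleukin 34, had 6.81, 7.07 and 6.16 CPM in control and 6.70, 6.27 and 6.37 CPM after neomycin. The groups overlapped and the log2 fold change was -0.05 (SE 0.13, adjusted p = 0.799). Cx3cr1, the fractalkine receptor, had 3.03, 1.88 and 2.05 CPM in control and 2.45, 3.54 and 2.68 CPM after neomycin (adjusted p = 0.363). C5ar1, the receptor for the complement fragment C5a, ran from 2.90 to 3.68 CPM in control and from 3.65 to 5.12 CPM after neomycin (adjusted p = 0.104). P2ry12 had 9 to 17 reads in control and 10 to 19 after neomycin (log2 fold change 0.31, SE 0.54, adjusted p = 0.700).

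The ratio of 2 genes within a sample does not depend on the scaling of the libraries. The ratio of Tyrobp to Csf1r in reads was 1.39, 1.59 and 1.88 in control and 2.48, 3.12 and 3.94 after neomycin. The ratio of Trem2 to Csf1r was 1.32, 1.48 and 1.76 in control and 2.17, 3.04 and 3.20 after neomycin, and that of Ms4a7 to Adgre1 was 0.368, 0.520 and 0.365 in control and 0.817, 0.800 and 0.806 after neomycin. In each of these 3 ratios, all neomycin samples lay above all control samples, and the same held for Tyrobp over Laptm5 (0.955, 1.23 and 1.07 in control, 1.56, 1.92 and 2.76 after neomycin). For Lyz2 over Csf1r the groups overlapped, at 15.5, 18.3 and 22.4 in control and 22.0, 27.5 and 27.6 after neomycin. A ratio of transcripts of unequal length carries the length trend described further on, and after its removal Tyrobp and Csf1r had log2 fold changes of 0.54 and 0.04, in place of 0.93 and -0.05. Trem2 over Tyrobp, the receptor over its adaptor, stayed between 0.812 and 0.974 in all 6 samples. These 2 transcripts are 4946 and 667 bases long. With the trend removed Trem2 had a log2 fold change of 0.89, in place of 0.83, beside 0.54 for Tyrobp. These pairs were chosen after their values were seen, and no test was made of them.

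Among scavenger receptors and products of resident macrophages, 2 of the 4 genes tested were called higher, where 2.24% of all genes were. The median log2 fold change was 0.52. After the gene length correction described further on, that median was 0.44 and Mrc1 alone of the 2 was called. Mrc1, the mannose receptor CD206 (chr2:14229392-14332057, + strand), had 5.64, 7.63 and 6.73 CPM in control and 9.70, 9.90 and 11.0 CPM after neomycin. It rose by a log2 fold change of 0.62 (SE 0.14, adjusted p = 0.00635), and its fold change dropped under the threshold without control replicate 1 or neomycin replicate 3. Pf4, a chemokine of platelets and of resident macrophages (chr5:90772435-90773383, + strand), had 2.77, 3.74 and 3.49 CPM in control and 4.74, 5.76 and 5.98 CPM after neomycin (log2 fold change 0.73, SE 0.18, adjusted p = 0.010). Msr1, scavenger receptor A, had 3.52, 4.33 and 4.75 CPM in control and 5.91, 5.02 and 5.88 CPM after neomycin and did not pass (log2 fold change 0.42, adjusted p = 0.0772). In all 3 of these genes the neomycin values lay above the control values, as they did for 21.0% of all genes. F13a1, which encodes the A chain of coagulation factor XIII, had 9.77, 11.0 and 12.9 CPM in control and 7.87, 12.1 and 11.2 CPM after neomycin (adjusted p = 0.640). Cd163, the hemoglobin scavenger receptor, had 36, 20 and 5 reads in control and 4, 5 and 5 after neomycin. Its level was high in control replicates 1 and 2 only, and in a fit without the filter on low counts its adjusted p was 0.0887.

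Of the 7 genes of the lysosome, phagosome and oxidase, 4 were higher at an adjusted p-value under 0.05, where 12.9% of all genes were. Cd68 alone was past the fold threshold. The median log2 fold change of the 7 was 0.41, and 0.15 after the gene length correction described further on. With that correction Cd68 and Mpeg1 kept an adjusted p-value under 0.05, Ctss and Lyz2 did not, and none was past the fold threshold. Cd68 (chr11:69664213-69666153, - strand) had 13.9, 15.0 and 17.8 CPM in control and 21.0, 26.3 and 23.0 CPM after neomycin. Its 1.51-fold rise was just over the threshold (log2 fold change 0.59, SE 0.12, adjusted p = 0.00308), and in 3 of the 6 fits with 1 sample left out it was under. Lyz2 had 105, 129 and 138 CPM in control and 148, 173 and 176 CPM after neomycin (log2 fold change 0.41, SE 0.10, adjusted p = 0.0104). A near-identical neighbor, Lyz1, shares reads with it, and how such reads were counted is not given in the sources used here. Ctss, the protease cathepsin S of antigen-presenting cells, had 18.1, 20.7 and 22.0 CPM in control and 22.6, 33.6 and 28.5 CPM after neomycin (log2 fold change 0.48, adjusted p = 0.0174). Without neomycin replicate 2 the adjusted p was 0.103 for Ctss and 0.0568 for Lyz2. Mpeg1, the pore-forming perforin-2 of macrophages, had 15.9, 18.6 and 17.4 CPM in control and 21.9, 24.5 and 22.7 CPM after neomycin (log2 fold change 0.42, adjusted p = 0.00702). All 4 of these genes had no overlap between the groups, where 21.0% of all genes had every neomycin value above every control value.

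The lysosomal membrane protein gene Laptm5 had 9.91, 9.16 and 10.8 CPM in control and 10.7, 10.2 and 9.10 CPM after neomycin, a log2 fold change of 0.00 (SE 0.12, adjusted p = 0.984). Cybb and Ncf1, which encode the catalytic subunit and an organizer of the phagocyte NADPH oxidase, had log2 fold changes of 0.03 and 0.11 (adjusted p = 0.919 and 0.639). Whether these genes differed in their response from Cd68 or Lyz2 was not tested.

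Cd14, the coreceptor of Toll-like receptors for lipopolysaccharide, went the other way. It had 19.5, 20.7 and 14.9 CPM in control and 9.26, 12.5 and 15.1 CPM after neomycin. Control replicate 3 and neomycin replicate 3 were alike, and neomycin replicates 1 and 2 were lower than any control sample. The log2 fold change was -0.58 (SE 0.17, adjusted p = 0.0223), just short of the fold threshold, and the adjusted p was under 0.05 in 2 of the 6 fits with 1 sample left out. Without control replicate 3 it was -0.70 on the log2 scale with an adjusted p of 0.00846. Cd14 is made by macrophages and by other cells, which bulk samples do not separate. Ly86 (MD-1), a partner of a Toll-like receptor relative, had 1.78, 1.86 and 2.53 CPM in control and 2.69, 2.69 and 2.72 CPM after neomycin (log2 fold change 0.40, adjusted p = 0.201).

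The 3 transcription factors of the lineage did not pass the test, by edgeR, by DESeq2 or at an unadjusted p-value under 0.05. Spi1, which encodes the myeloid factor PU.1, had 1.85, 2.45 and 2.51 CPM in control and 2.37, 2.39 and 3.05 CPM after neomycin (log2 fold change 0.20, SE 0.23, adjusted p = 0.539). Irf8 had 9.64, 9.24 and 9.66 CPM in control and 7.27, 11.5 and 11.1 CPM after neomycin (log2 fold change 0.07, adjusted p = 0.782), with neomycin replicate 1 the lowest of the 6 and the other two the highest. Ikzf1 (Ikaros) had 0.745 to 1.28 CPM over the 6 samples (adjusted p = 0.586).

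Of 5 genes of the leukocyte cytoskeleton and its signaling, 0 were called by edgeR or DESeq2, and 2, Coro1a and Aif1, had an unadjusted p-value under 0.05. Lcp1, the actin bundler L-plastin, had 14.1, 15.1 and 15.0 CPM in control and 14.4, 12.8 and 14.9 CPM after neomycin (log2 fold change -0.07, SE 0.10, adjusted p = 0.638). Coro1a, the actin regulator coronin 1A, had 5.69, 5.50 and 5.52 CPM in control and 6.53, 6.91 and 7.22 CPM after neomycin, without overlap (log2 fold change 0.31, adjusted p = 0.0990). Aif1, which encodes the macrophage stain IBA1, had 0.927, 0.978 and 0.961 CPM in control and 0.998, 2.17 and 1.68 CPM after neomycin. The control values lay close together and the treated ones far apart, so that a log2 fold change of 0.76 (SE 0.33) had an adjusted p of 0.101. Dock2, an activator of Rac in leukocytes, and Cyth4, a cytohesin, had log2 fold changes of 0.36 and 0.16 (adjusted p = 0.496 and 0.523), and Alox5ap, needed for leukotriene synthesis, had 0.30 (adjusted p = 0.372).

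**Figure D3:**
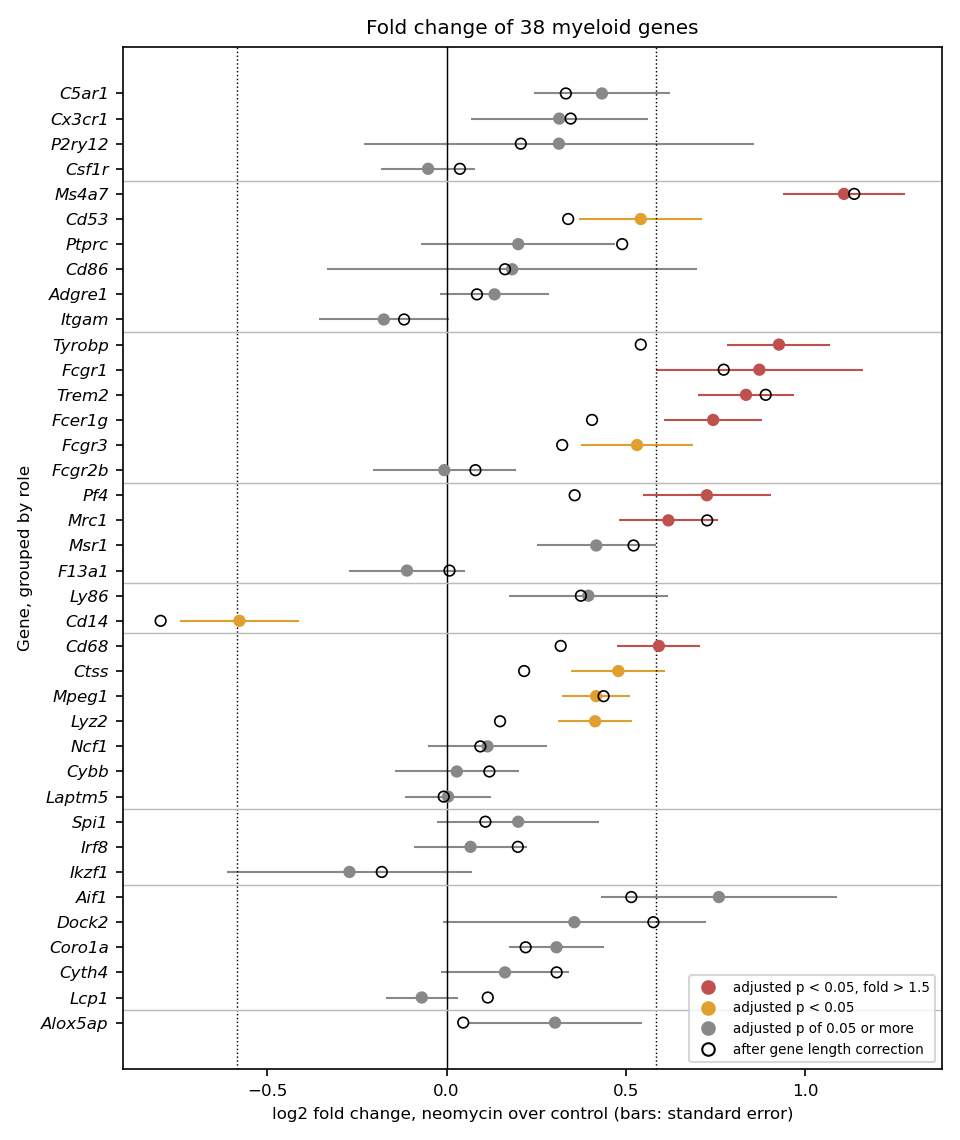
Log2 fold change of neomycin over control for the 38 tested genes (filled points, bars: standard error), grouped by role, with open circles for the value after the gene length correction and dotted lines at a fold change of 1.5. The 8 called genes in red run from Cd68 at 0.59 to Ms4a7 at 1.11, and the open circles lie to the left of the filled points for the short transcripts Tyrobp, Fcer1g and Pf4.

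Transcript length went together with the fold change in these libraries. Over 15869 genes with a length, the log2 fold change fell with exon length at a slope of -0.43 per 10-fold increase in length, and the median was 0.26 for genes under 2000 bases and -0.04 for longer ones. The 38 myeloid genes had a slope of -0.46 and r = -0.43 across genes, which are not independent replicates. Among them, 11 genes under 2000 bases had a median of 0.54 and 27 longer ones a median of 0.20. In each class 4 were called higher, beside 161 of 2449 shorter and 192 of 13420 longer genes over all. The trend on length was then removed from each sample, after which 251 of the 15869 genes were called higher and 914 lower. Of the 38 myeloid genes, 3 remained called higher. These were Ms4a7 (log2 fold change 1.14, adjusted p = 0.000518), Trem2 (0.89, adjusted p = 0.000607) and Mrc1 (0.73, adjusted p = 0.00275), whose transcripts are 4453 to 6371 bases long. Tyrobp, at 667 bases the shortest of the list, dropped to 0.54 (adjusted p = 0.00417), Fcer1g to 0.41 (adjusted p = 0.0193) and Cd68 to 0.32 (adjusted p = 0.0245), all under the fold threshold. Fcgr1 kept a log2 fold change of 0.77 with an adjusted p of 0.0635. For Pf4, Fcgr3, Cd53, Ctss and Lyz2 the log2 fold change after correction was 0.15 to 0.36 and the adjusted p 0.122 to 0.166. Cd14 was then called lower (-0.80, adjusted p = 0.00418), Csf1r was near 0 at 0.04, and Mpeg1 (0.44, adjusted p = 0.00438) and Msr1 (0.52, adjusted p = 0.0395) had adjusted p-values under 0.05. The median of the 38 was 0.26 after the correction, beside 0.01 over all genes tested.

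**Figure D4:**
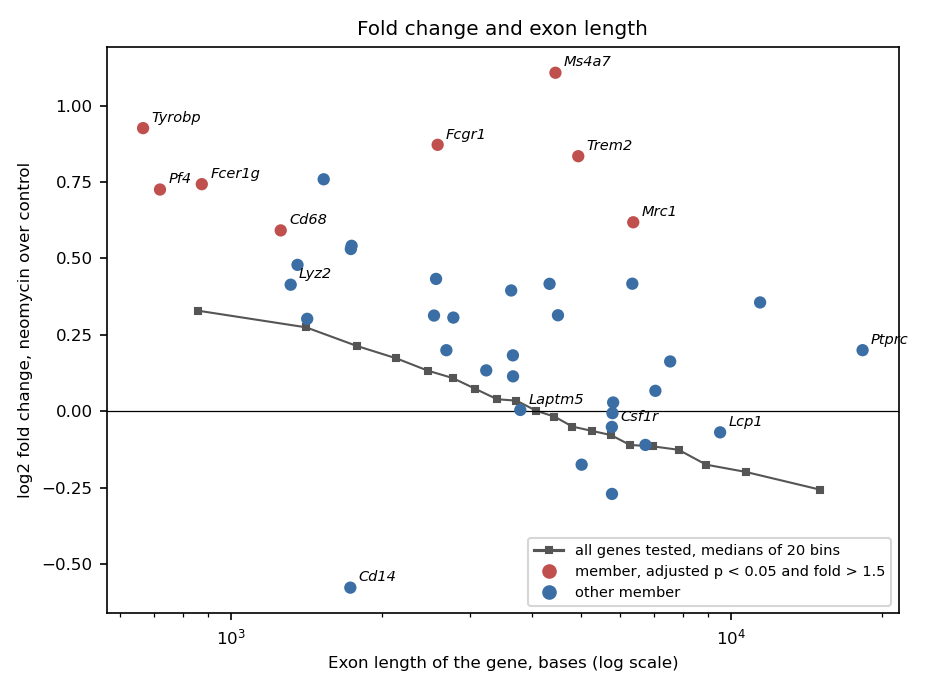
Log2 fold change of neomycin over control (vertical axis) against exon length in bases (horizontal, log scale) for the 38 myeloid genes (points, red for the 8 called) and for all genes tested (squares, medians of 20 length bins). The bin medians fall from 0.33 at 860 bases to -0.26 at 15052.5 bases, Trem2, Ms4a7 and Mrc1 lie well above the line at their length, and Lyz2 lies close to it.

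PU.1 binds and regulates many genes of the myeloid lineage, and promoters of the list were searched for the letters GAGGAAGT, a core of the sites that PU.1 binds, on either strand (ACTTCCTC on the other). Windows ran from 250 bases before to 50 bases after the start of each gene in the RefSeq table for GRCm38.p6, in which 32 of the 40 genes had one. The letters were found in 5 of these 32 (15.6%), Ctss, Cd53, Pf4, F13a1 and Cyth4, against 997 of 27025 genes (3.69%) over the whole table. A match describes the sequence and is not a shown binding site. The windows of the 3 genes that had both a match and an adjusted p-value under 0.05 are shown, 5′ to 3′ on the strand of the gene. They were picked by that adjusted p-value and not by the place of the match. In F13a1 and Cyth4, not shown, the match begins at base 265 and 277 of the window. Ctss is chr3:95526536-95526835 on the + strand, Cd53 is chr3:106790100-106790399 on the - strand, and Pf4 is chr5:90772185-90772484 on the + strand. The capitals mark the match, which is the reverse complement of the searched letters in all 3 and begins at base 249, 257 and 241 of the 300, where the start site is base 251.
Ctss: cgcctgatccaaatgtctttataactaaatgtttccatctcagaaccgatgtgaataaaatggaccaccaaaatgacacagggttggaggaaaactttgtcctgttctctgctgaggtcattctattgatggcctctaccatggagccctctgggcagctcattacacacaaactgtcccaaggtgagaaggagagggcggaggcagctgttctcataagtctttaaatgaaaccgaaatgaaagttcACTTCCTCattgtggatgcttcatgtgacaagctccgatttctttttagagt
Cd53: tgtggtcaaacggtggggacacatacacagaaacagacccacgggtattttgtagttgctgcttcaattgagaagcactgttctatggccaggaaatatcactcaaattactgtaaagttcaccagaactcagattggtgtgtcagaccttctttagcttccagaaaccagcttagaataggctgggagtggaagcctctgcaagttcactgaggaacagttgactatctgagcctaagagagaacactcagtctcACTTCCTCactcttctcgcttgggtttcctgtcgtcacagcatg
Pf4: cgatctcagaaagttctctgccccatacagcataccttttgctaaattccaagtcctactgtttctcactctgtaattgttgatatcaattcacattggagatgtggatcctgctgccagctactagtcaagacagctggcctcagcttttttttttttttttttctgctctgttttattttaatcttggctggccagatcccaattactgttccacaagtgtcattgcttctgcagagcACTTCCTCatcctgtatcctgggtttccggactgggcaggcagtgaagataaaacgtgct

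Of the 5 genes with a match, Ctss, Cd53 and Pf4 had an adjusted p-value under 0.05. F13a1 and Cyth4 did not pass the test (log2 fold changes of -0.11 and 0.16). Of the 38 myeloid genes tested, 34.2% were higher at an adjusted p-value under 0.05, and of all genes 12.9%. After the length correction the adjusted p (edgeR) was 0.166 for Ctss, 0.131 for Cd53 and 0.122 for Pf4. Whether a match went with the fold change was not tested.

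A further list of 76 myeloid genes outside the 40 had 72 tested, of which 10 were called higher (13.9%, against 2.24% of all genes) and 2 lower, with a median log2 fold change of 0.26. The largest rises were in the genes of a lipid receptor and 2 lectins. Gpr34, a lysophosphatidylserine receptor of microglia and macrophages, had 0.116, 0.307 and 0.231 CPM in control and 0.640, 0.508 and 0.670 CPM after neomycin (log2 fold change 1.49, SE 0.48, adjusted p = 0.0353), and with any 1 sample left out its adjusted p lay between 0.056 and 0.145. Clec12a, an inhibitory lectin of myeloid cells, had 0.826, 0.939 and 1.14 CPM in control and 2.58, 1.66 and 2.25 CPM after neomycin (log2 fold change 1.16, adjusted p = 0.00989). Clec7a, which encodes the lectin dectin-1, had 1.94, 2.65 and 1.90 CPM in control and 3.18, 4.39 and 3.78 CPM after neomycin (log2 fold change 0.81, adjusted p = 0.0157, and 0.0832 without neomycin replicate 2). The other 7 called higher were Hk3, Fcrls, C3ar1, Lgals3, Gpnmb, C1qc and C1qa. Bulk samples do not show which cells made the transcripts of this list. After the length correction Gpr34 (adjusted p = 0.0592), Lgals3 (log2 fold change 0.50), C1qc (0.46) and C1qa (0.27, adjusted p = 0.0671) were no longer called, and with 1 sample left out C1qa was called in 3 of 6 fits. With the correction 7 genes of this list were called higher, Lilrb4a among them, beside 251 of 15869 genes with a length. The 2 called lower were Sall1, a zinc finger factor of microglia and of embryonic epithelia, at 61.2 to 68.0 CPM in control and 29.9 to 37.4 CPM after neomycin, and Pik3ap1, an adaptor of phosphoinositide 3-kinase, at 25.4 to 31.2 and 14.4 to 16.3 CPM.

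The ligands of 2 of the receptors were read in the same samples. Csf1 had 34.6, 38.6 and 30.8 CPM in control and 27.5, 26.6 and 27.5 CPM after neomycin, and it fell by 0.35 on the log2 scale (SE 0.09, adjusted p = 0.0140, and 0.0781 without control replicate 2). Il34, the other ligand of the Csf1r product, had 4.46, 4.54 and 4.87 CPM in control and 6.89, 6.46 and 5.38 CPM after neomycin (log2 fold change 0.43, SE 0.15, adjusted p = 0.0484). That adjusted p was 0.234 after the length correction and up to 0.145 with 1 sample left out. Cx3cl1, the ligand of Cx3cr1, had 56.5 to 64.4 CPM in control and 57.0 to 61.9 CPM after neomycin (log2 fold change -0.05, adjusted p = 0.626). None of the 3 passed the fold threshold.

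Markers of other leukocytes ranged from absent to clearly present. Of the T and NK, B, mast and erythroid cell lists, 3, 4, 2 and 2 genes were tested and 0 were called by edgeR or DESeq2, with Alas2 of the erythroid list lower at an unadjusted p-value under 0.05. Kit of the mast cell list, which other cells also express, had a log2 fold change of -0.29 (edgeR, adjusted p = 0.0326), under the fold threshold. Of the genes in the table, 3 of 11 in the T and NK cell list and 2 of 8 in the B cell list had 3 reads or fewer in every sample. Reads were found for Cd3e (3 to 16 per sample), Cd4 (9 to 47), Lck (423 to 652), Cd79b (15 to 30) and Blnk (969 to 1270). Genes at 0 reads in every sample included Cd3d and Gzma of T and NK cells, Ms4a1 and Pax5 of B cells, Tpsab1 and Fcer1a of mast cells and Slc4a1 of erythroid cells. The neutrophil list had 6 of 12 genes tested, with Mpo, Elane and Cxcr2 at 0 to 10 reads. Prtn3 (129 to 221 reads) and Camp (197 to 313 reads) were present in all 6 samples. Both had CPM after neomycin above all control values, as did 21.0% of all genes. Their log2 fold changes were 0.45 and 0.42 (edgeR, adjusted p = 0.108 and 0.0992). After the length correction these were 0.25 and 0.05 (edgeR, adjusted p = 0.386 and 0.855). The genes S100a8, S100a9 and Ngp had 138, 258 and 149 reads in control replicate 3 and 226, 402 and 186 reads in neomycin replicate 3, against 0 to 12 reads in the other 4 samples. These reads marked 1 sample of each group, and their part in the values of the myeloid genes was not tested. Without control replicate 3 there were 9 myeloid genes called higher, and without neomycin replicate 3 there were 6. Lcn2, lipocalin 2, a product of neutrophils and of epithelia, was called lower by edgeR, from 801, 1018 and 702 CPM in control to 146, 221 and 546 CPM after neomycin (log2 fold change -1.47, adjusted p = 0.00868). Without neomycin replicate 3 its log2 fold change was -2.20, and DESeq2 gave an adjusted p of 0.0519.

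**Figure D5:**
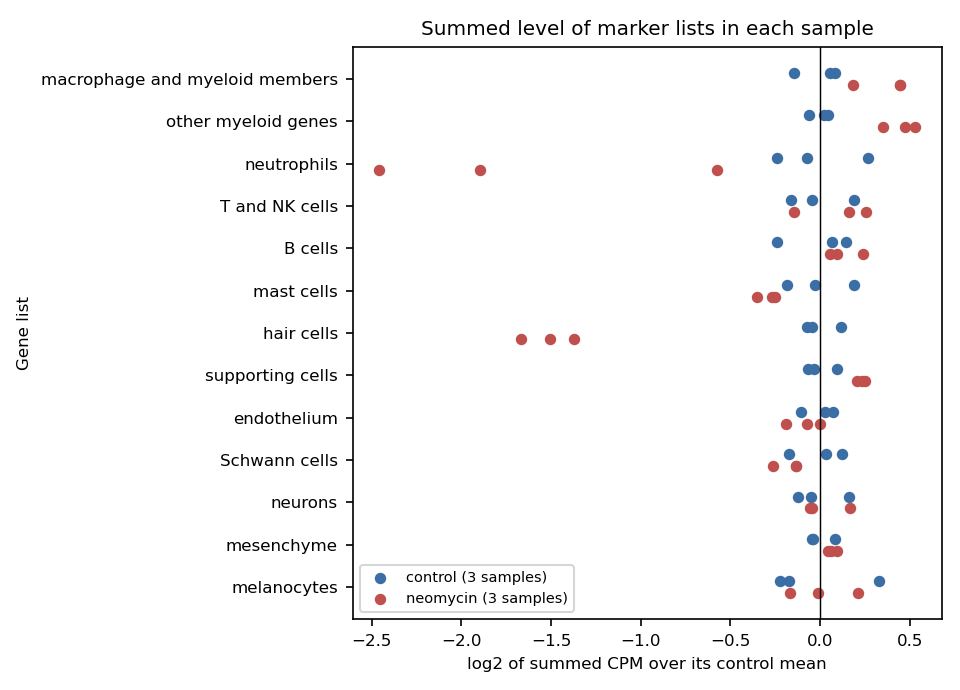
Summed CPM of each marker list in each sample as log2 over its control mean (horizontal axis, points, blue for the 3 control and red for the 3 neomycin samples). The myeloid genes and the further myeloid list, whose sum is mostly Apoe, lie to the right of 0 in all neomycin samples, HC genes lie far to the left, and the neutrophil sum, which is mostly Lcn2, spreads to the left.

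Some markers of other cell types of the explant moved in the same comparison. Of 15 endothelial genes 9 were called lower, and of 11 neuronal genes 4 were lower. Of 18 supporting cell genes 2 were lower and of 11 Schwann cell genes 1, while of 12 mesenchymal genes 1 was higher and 1 lower. Over all genes tested, 6.60% were called lower and 2.24% higher. Counts of 1 or 2 genes are too few to tell apart from these shares. In the endothelial, neuronal, supporting cell and Schwann cell lists 0 genes were called higher by edgeR or DESeq2, with 5 supporting cell and 2 neuronal genes higher at an unadjusted p-value under 0.05, and of 4 melanocyte genes 0 passed by any of these. Emcn, which had the highest CPM of the endothelial list, lay at 238 to 298 CPM and did not pass the test. S100a1, which had the highest CPM of the supporting cell list, had 1391 to 1804 CPM in control and 2050 to 2287 CPM after neomycin, and its log2 fold change of 0.46 was 0.09 after the length correction. CPM are shares of a library, and the part of these shifts in the myeloid sum was not tested.

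Annotated exons of 10 of the 40 genes overlap those of a gene on the opposite strand, among them Csf1r with Hmgxb3, Coro1a with Bola2, Ncf1 with Gtf2ird2 and P2ry12 with Med12l, and exons of Itgam overlap a gene on the same strand. The strand setting of the counting is not given in the sources used here, so the reads of these genes may include or lack some of their neighbors. None of the 8 genes called higher is among them.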

How the data were processed

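RNA of 3 control and 3 neomycin-treated explant samples was sequenced. According to the paper's methods and the submitters' processing notes, the authors called bases with CASAVA 1.8, trimmed reads with Trimmomatic 0.23, aligned them to mm10 with HISAT2 and counted them with HTSeq on the UCSC annotation, and they deposited raw counts per gene symbol without normalization. How reads matching several genes were treated is not given in the sources used here. The table has one column per sample.

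Libraries were scaled with TMM and genes with few reads removed with filterByExpr in edgeR 4.0.16 (R 4.3.3), and neomycin was tested against control without covariates. Each SE is the log2 fold change over the square root of F. The myeloid genes, the other lists and their roles were chosen with earlier results of these data known. Values are given in full for genes called or among the 12 with the highest mean CPM, and for the ligands Csf1, Il34 and Cx3cl1, and in each further list the rule names up to 3 called genes per direction, of which the myeloid and neutrophil lists are shown. Values given in full for further members were chosen after they were seen. Genes with 3 counts or fewer were taken as at the floor, which covers counting error only. The samples are pools of cochleae, and no label says whether pools came from separate litters, so p-values measure the spread between these samples.

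Alternatives were DESeq2 1.42.0, limma-voom (limma 3.58.1), RLE and upper quartile scaling, other filters and thresholds, a block for the replicate number, fits that each omit 1 sample, and removal of the trend on exon length (lowess, span 0.3, GENCODE exons of GRCm38, 99.3% of tested genes with a length). The length correction with the block and the sum without Lyz2 were added after seeing the data. Code was tested on simulated data. Promoters are RefSeq's, and Csf1r, Adgre1, Cd86, Tyrobp, Msr1, Cd14, Spi1 and Alox5ap had none in that table. Figures were drawn with matplotlib 3.10.9.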

Additional observations from a re-analysis of the deposited data

How the results depend on the processing

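The 8 myeloid genes called higher were the same 8 with DESeq2, limma-voom, RLE or upper quartile scaling, no filter, a mean CPM of at least 1, and the replicate block. The count was 3 after the length correction, 4 with that correction and the block, 13 with no fold change threshold, and 5 (without control replicate 1) to 11 (without neomycin replicate 1) with a sample left out. The count called lower was 1 (Cd14) with limma-voom, the replicate block, the length correction, that correction with the block, or no fold change threshold, and 0 to 2 with a sample left out, the 2 being Cd14 and Cd163 without control replicate 3. In the further myeloid list 18 were higher with no fold change threshold, beside 10. Over all genes, the count higher was 2058 with no fold change threshold, 217 at an adjusted p-value under 0.01, and 237 (without control replicate 2) to 513 with a sample left out. After the length correction the count higher was 251, without or with the block. The count lower was 2571 with no fold change threshold and 914 after the length correction. The median over the myeloid genes lay between 0.26 and 0.38 on the log2 scale in all fits run, and the summed level in each sample moved by less than 1 SD under RLE or no scaling.

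Replicate numbers are shared by the groups, but no label says that they mark a litter or day. Deviations from the group means of same-numbered samples correlated at 0.165, 0.0264 and 0.0949, and those of differently numbered samples at -0.129 to 0.0325. Control replicate 2 correlated more with neomycin replicate 3 (0.0325) than with its own number. The neutrophil genes S100a8, S100a9 and Ngp had most of their reads in replicate 3 of both groups. Whether the numbers mark pairs of samples was not tested. The replicate block gave 8 myeloid genes higher and 1 lower, and 376 higher and 1089 lower over all genes.

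The sign of the log2 fold change turned for 10 myeloid genes, none of them past the test. With the length correction, without and with the block, it was 0.037 and 0.038 for Csf1r, 0.080 and 0.071 for Fcgr2b, -0.0079 and -0.0074 for Laptm5, and 0.11 and 0.11 for Lcp1, and with the correction alone 0.0082 for F13a1. Fcgr2b was also at 0.010 with limma-voom and at 0.015 with upper quartile scaling. With a sample left out, the range was -0.062 to 0.55 for P2ry12, -0.15 to 0.53 for Cd86, -0.20 to 0.12 for Fcgr2b, -0.23 to 0.054 for F13a1, -0.049 to 0.079 for Laptm5, -0.15 to 0.18 for Cybb, -0.048 to 0.25 for Irf8 and -0.062 to 0.59 for Dock2. The cause of these changes was not tested. With few reads the standard errors were wide, at 0.54 for P2ry12, 0.52 for Cd86, 0.37 for Dock2 and 0.34 for Ikzf1.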
